A study of Mus musculus with 16 samples.

Results

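The CC chemokines of myeloid cells were described here as 10 ligand genes, Ccl2, Ccl3, Ccl4, Ccl5, Ccl6, Ccl7, Ccl8, Ccl9, Ccl12 and Ccl24, taken by symbol from a table of 24421 gene symbols. All 10 were present, and all 10 were among the 13649 genes left by the filter on low counts. RNA was sequenced from cells sorted as F4/80-positive, labelled as macrophages associated with muscle, in 16 mouse libraries. The 4 groups, with 4 libraries each, were WT and GLUD1 KO from normal muscle and WT and GLUD1 KO from CTX-injected muscle, where the design text speaks of a baseline and of the time when damage peaks. Glud1 encodes the mitochondrial glutamate dehydrogenase. CTX is given by the labels only as that abbreviation. The promoter or Cre that removes Glud1, the strain, the age of the mice and whether each library came from its own mouse are not given in the sources used here. The spread that p-values rest on is that between libraries, which may be technical.

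CC chemokines are small secreted proteins that carry 2 adjacent cysteines near the N terminus and act on G protein-coupled CC receptors of leukocytes. In damaged muscle, ligands such as CCL2 are known to draw in blood monocytes that carry the receptor CCR2 and become macrophages. Others are known as ligands of CCR1 on monocytes and neutrophils, or of CCR3 on eosinophils. Many of these genes are induced through NF-kB in activated macrophages, and their short-lived transcripts are cleared by the decay factor that Zfp36 encodes.

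Libraries held 19352958 to 21903563 in WT normal, 17051892 to 22521092 in KO normal, 19842999 to 23097420 in WT CTX and 21222870 to 22230960 counts in KO CTX muscle. Levels are given as CPM (counts scaled to a common library size) after TMM scaling, whose factors were 1.13 to 1.34 in normal and 0.76 to 0.87 in CTX-injected muscle. The macrophage genes Adgre1, which encodes F4/80, and Csf1r, the receptor for the macrophage growth factor, were at 509 CPM or more and 1572 CPM or more in every library. Libraries WT normal 5 and 6 and KO normal 5 came from females by Xist and Y-linked genes, and the other 13 from males. In bulk RNA, a change in the number of cells of a type cannot be told apart from a change in RNA per cell.

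Of the members, 9 lie on chromosome 11 in 2 groups of neighbours and Ccl24 lies on chromosome 5 (GENCODE M21, mm10). Ccl2 (82035571 to 82037453), Ccl7 (82045712 to 82047525), Ccl12 (82101845 to 82103400) and Ccl8 (82115185 to 82116799) are on the plus strand. Ccl5 (83525778 to 83530518), Ccl9 (83572919 to 83578636), Ccl6 (83587882 to 83593087) and Ccl3 (83647844 to 83649355) follow on the minus strand, and Ccl4 (83662584 to 83664683) on the plus strand. Ccl24 spans 135569937 to 135573049 on the minus strand. No exon of a member overlapped an exon of another annotated gene. Outside Ccl9, no 50-base window of any member's transcripts was found in transcripts of another gene, and 1.97% of the windows of Ccl9 were. The longest identical run between members was 25 bases, in Ccl6 and Ccl9.

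The RefSeq table of GRCm38.p6 held the promoters of 5 members, and 4 of them are printed as the 250 bases before the annotated start because these genes form neighbouring pairs. Of Ccl12 and Ccl8, whose starts are 13.3 kb apart, Ccl12 was called as rising after injury and Ccl8 was not, a difference that was not tested. The neighbours Ccl9 and Ccl6 both rose. Capitals mark matches to TATAAA, to TGANTCA (a loose form of the AP-1 motif, N being any base) and to the kappaB motif of NF-kB. Both strands were searched, and matches may overlap each other.
Ccl12, chr11:82101595-82101844, plus strand: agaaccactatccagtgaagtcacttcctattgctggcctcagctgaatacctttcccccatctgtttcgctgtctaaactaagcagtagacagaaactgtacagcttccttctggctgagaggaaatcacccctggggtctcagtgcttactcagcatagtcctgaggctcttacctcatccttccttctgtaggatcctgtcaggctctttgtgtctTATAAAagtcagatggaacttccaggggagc
Ccl8, chr11:82114935-82115184, plus strand: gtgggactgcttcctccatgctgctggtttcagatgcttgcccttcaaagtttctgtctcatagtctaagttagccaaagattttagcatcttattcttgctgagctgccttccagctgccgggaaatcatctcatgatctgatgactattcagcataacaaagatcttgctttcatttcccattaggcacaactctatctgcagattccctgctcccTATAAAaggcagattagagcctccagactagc
Ccl9, chr11:83578637-83578886, minus strand: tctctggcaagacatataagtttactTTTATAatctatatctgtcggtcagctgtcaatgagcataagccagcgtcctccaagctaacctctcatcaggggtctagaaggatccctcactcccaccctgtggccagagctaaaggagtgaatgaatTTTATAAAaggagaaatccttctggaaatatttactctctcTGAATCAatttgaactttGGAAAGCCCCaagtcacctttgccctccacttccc
Ccl6, chr11:83593088-83593337, minus strand: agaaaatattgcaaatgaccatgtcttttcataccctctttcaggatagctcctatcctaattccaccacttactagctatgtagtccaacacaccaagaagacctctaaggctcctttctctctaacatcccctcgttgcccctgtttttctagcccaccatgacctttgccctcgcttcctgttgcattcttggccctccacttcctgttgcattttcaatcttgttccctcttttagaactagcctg
Ccl12 and Ccl8 each held 1 TATAAA, at -31 to -26 and at -32 to -27 from the start. Ccl9 held 1 kappaB match at -35 to -26, 1 AP-1 match at -53 to -47 and 3 matches to TATAAA, of which 2 overlapped. Ccl6 held none of these letters in this window. The same windows were searched for GAGGAAGT (PU.1) and TTGCNNAA (C/EBP) and for the ISRE motif of interferon-induced genes, which none of the 5 promoters held. Over 32536 promoter windows of the same length, 5.03% held the kappaB motif, 6.73% TGANTCA, 12.31% TATAAA, 2.45% GAGGAAGT, 9.57% TTGCNNAA and 2.98% the ISRE motif. In global alignments, the Ccl12 and Ccl8 windows were identical at 54.5% of positions and the Ccl9 and Ccl6 windows at 46.2%, in a range of 43.9% to 54.5% over the 10 pairs of the 5 promoters.

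The 10 members together took 0.391% to 0.655% of all counts in WT normal, 0.307% to 0.454% in KO normal, 1.084% to 1.288% in WT CTX and 0.983% to 1.203% in KO CTX libraries. In CTX-injected muscle most of this came from 2 genes, Ccl6 and Ccl9, which took 0.647% to 0.867% of the counts of a library. These shares are of unscaled counts, and the ranges of CTX-injected and normal muscle did not overlap.

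Levels of different genes were compared per kilobase of exon. In WT normal muscle Ccl7 (716 CPM per kb), Ccl6 (700.1), Ccl4 (507) and Ccl2 (436) led the order, and Ccl5 was lowest at 19.6 CPM per kb. The ranges of adjacent genes in that order overlapped down to Ccl9, and Ccl24 (157 CPM per kb), Ccl12 (71.4) and Ccl5 stood apart below it. In KO normal muscle Ccl4 (477) and Ccl6 (471) led, with overlapping ranges, and Ccl5 (25.8) was again lowest. In WT CTX muscle Ccl6 led at 3225 CPM per kb, ahead of Ccl7 at 2088 with an overlapping range. In KO CTX muscle Ccl6 (3141) lay above Ccl7 (1793) and Ccl7 above Ccl9 (1213) without overlap, while Ccl9 overlapped Ccl2 (1191).

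**Figure D1:**
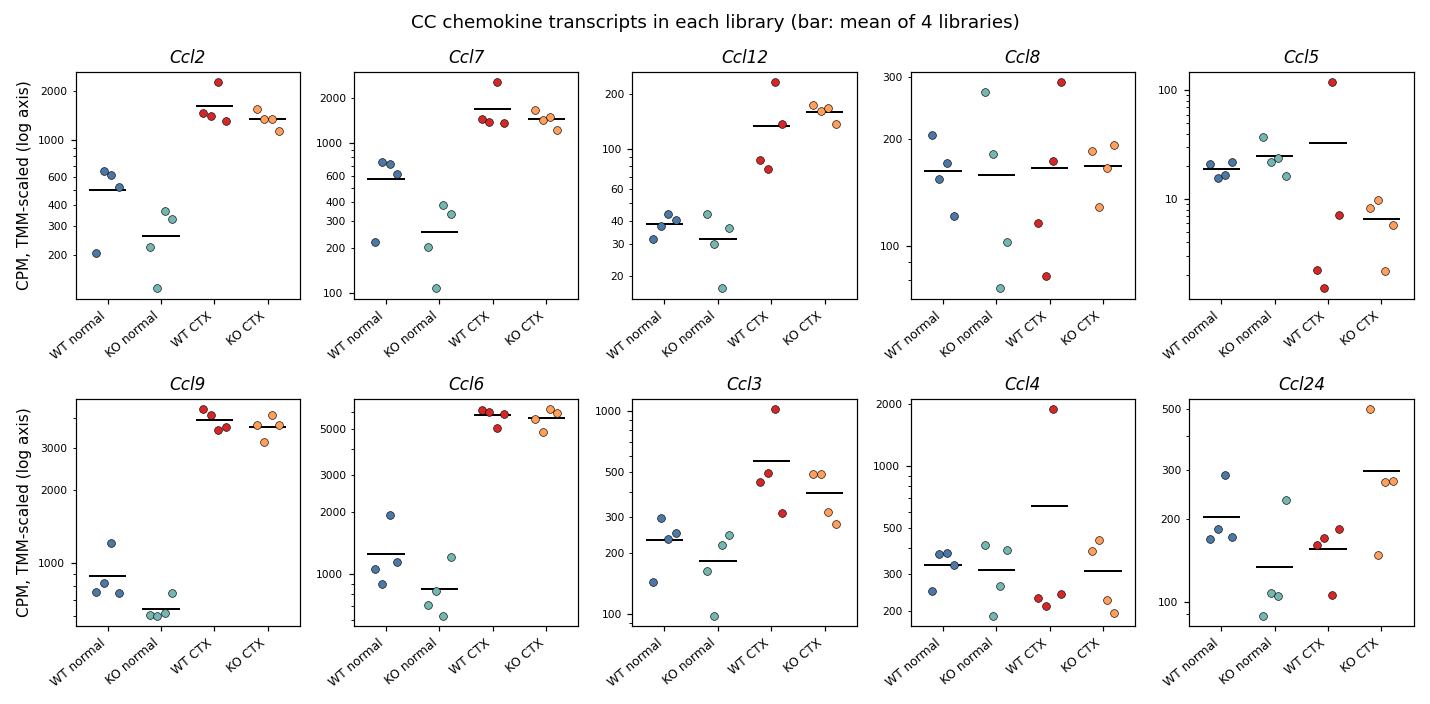
Level of each CC chemokine gene in CPM after TMM scaling (log axis, a separate scale for each gene) in the 4 libraries of each group, with bars at the mean. Ccl6 and Ccl9 show CTX libraries at 4806 to 6191 and 3175 to 4354 CPM, above every normal library, while the WT CTX points of Ccl4 and Ccl5 are split by 1 library at 1884 and 119 CPM.

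Damage of the muscle was compared within each genotype, to describe the chemokines made by macrophages at the peak of injury. In WT, 6 of the 10 members rose by edgeR's quasi-likelihood test with an adjusted p under 0.05 (Ccl2, Ccl3, Ccl6, Ccl7, Ccl9 and Ccl12), against 33.3% of all genes tested that rose. No member was called lower, against 39.4% of all genes, and the 6 rising members were also the only members with an unadjusted p under 0.05, which 74.7% of all genes had. In KO, 7 of 10 rose, the same 6 and Ccl24, against 33.3% of all genes, and none was called lower, against 40.2%. These 7 alone had an unadjusted p under 0.05, against 75.2% of all genes. The median log2 change of the members was 1.42 in WT and 1.74 in KO, and that of all genes tested was -0.15 and -0.16. The members were chosen with results of these libraries known, so these counts are a description. WT and KO were compared each with its own normal libraries.

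Ccl6 and Ccl9 encode chemokines of rodents that act through CCR1, and they had the most counts of the members after injury. By mean level per kilobase of exon, Ccl6 led in both CTX groups, and Ccl9 was below Ccl7 in both and below Ccl2 in WT CTX muscle. The WT CTX ranges of Ccl2 (1164 to 2001 CPM per kb) and Ccl9 (1175 to 1430) overlapped, and the highest Ccl2 was in library 3. Ccl6 was at 1054, 895, 1928 and 1150.1 CPM in WT normal libraries 2, 3, 5 and 6, and at 6163, 6013, 5067 and 5913 CPM in WT CTX libraries 1 to 4. In KO it went from 707, 828, 633 and 1215 CPM in libraries 1, 2, 3 and 5 to 5599, 4806, 6191 and 5958 CPM. Every CTX library lay above every normal library, and the CTX libraries of both genotypes covered the same range. The log2 change was 2.20 (SE 0.24, edgeR adjusted p = 5.52e-07) in WT and 2.74 (SE 0.24, edgeR adjusted p = 7.07e-08) in KO, a fold of 4.60 and 6.66.

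Ccl9 changed by a like amount with less spread. Its level rose from 881 ± 218 to 3935 ± 367 CPM in WT (SD, n = 4 each) and from 642 ± 69.6 to 3694 ± 387 CPM in KO. The log2 change was 2.16 (SE 0.16) in WT and 2.52 (SE 0.16) in KO, with edgeR adjusted p of 1.27e-08 and 3.47e-09. The number of Ccl6 counts per Ccl9 count, a ratio that scaling between libraries cannot move, stayed between 1.42 and 1.61 in the 8 CTX libraries. In normal muscle it spread from 1.03 to 1.63. The normal libraries numbered 5 had the highest Ccl6, Ccl9 and Ccl24 of their group in both genotypes. In WT normal library 5 these were 1928, 1204 and 287 CPM, and in KO normal library 5 they were 1215, 746 and 234 CPM. The summed level of 7 resident macrophage markers was also highest in these libraries, at 5941 CPM in WT (range 3573 to 5941) and 3501 CPM in KO (range 2727 to 3501), and its part in the result was not tested. Both are female libraries, while the third female library, WT normal 6, had 1150.1 CPM of Ccl6 and 745 CPM of Ccl9.

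Ccl2 (MCP-1), Ccl7 (MCP-3) and Ccl12 (MCP-5) encode ligands of CCR2, the receptor by which monocytes leave marrow and enter tissue, and all 3 rose in both genotypes. Ccl2 was at 203, 655, 611 and 517 CPM in WT normal libraries 2, 3, 5 and 6 and at 1465, 1415, 2277 and 1324 CPM in WT CTX libraries 1 to 4. In KO it was at 222, 124, 368 and 330.3 CPM in normal libraries 1, 2, 3 and 5 and at 1557, 1360.3, 1362 and 1144 CPM in CTX libraries 1 to 4. The CTX libraries did not overlap the normal ones in either genotype. The change was 1.71 (SE 0.34, edgeR adjusted p = 0.000333) on the log2 scale in WT and 2.38 (SE 0.35, edgeR adjusted p = 1.69e-05) in KO.

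Ccl7 followed Ccl2 in every library. It rose from 574 ± 243 to 1673 ± 573 CPM in WT (log2 1.54, SE 0.38, edgeR adjusted p = 0.00181) and from 256 ± 125 to 1436 ± 177 CPM in KO (log2 2.49, SE 0.39, edgeR adjusted p = 3.40e-05). The ratio of Ccl2 to Ccl7 counts was 0.833 to 1.16 over all 16 libraries, a span far narrower than that of either gene. It was 0.833 to 0.932 in WT normal and 0.962 to 1.16 in KO normal libraries, ranges that did not overlap, a comparison chosen after the values were seen and not tested. After subtracting each group's mean, the log2 levels of Ccl2 and Ccl7 had a Pearson correlation of 0.997 over the 16 libraries.

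Ccl12 was less abundant. It was at 31.9, 37.4, 43.5 and 40.7 CPM in WT normal libraries 2, 3, 5 and 6 and at 86.3, 77.7, 233 and 137 CPM in WT CTX libraries 1 to 4. In KO it went from 31.8 ± 11.3 to 160.1 ± 16.7 CPM. The KO CTX libraries lay close together between 137 and 175 CPM, within the wider WT CTX range. The log2 change was 1.80 (SE 0.31, edgeR adjusted p = 7.33e-05) in WT and 2.33 (SE 0.31, edgeR adjusted p = 6.12e-06) in KO.

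Ccl8 (MCP-2) is the nearest neighbour of Ccl12 and did not pass the test in either genotype. It was at 205, 154, 171 and 121 CPM in WT normal libraries 2, 3, 5 and 6 and at 116, 82.1, 173 and 290.1 CPM in WT CTX libraries 1 to 4. The 2 ranges overlapped widely, and so did those of KO, 75.7 to 273 CPM without injury and 129 to 193 CPM with it. The log2 change was 0.02 (SE 0.37, edgeR adjusted p = 0.965) in WT and 0.09 (SE 0.37, edgeR adjusted p = 0.840) in KO. The ratio of Ccl8 to Ccl12 counts within a library was 2.81 to 6.44 in the normal and 0.746 to 2.12 in the CTX libraries, without overlap. The difference between the responses of these 2 genes was not tested.

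**Figure D2:**
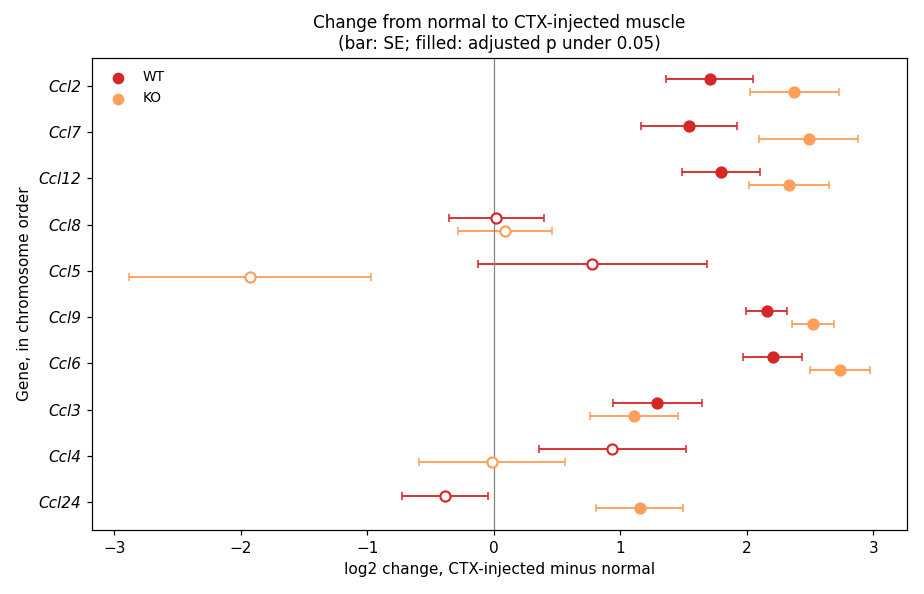
Fitted log2 change from normal to CTX-injected muscle for each member in WT and KO, with SE bars, in chromosome order, where filled points have an adjusted p under 0.05. Ccl2, Ccl7, Ccl12, Ccl9, Ccl6 and Ccl3 are filled in both genotypes at 1.11 to 2.74, Ccl8 is at 0.02 and 0.09, and Ccl24 is filled only in KO.

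Ccl3 (MIP-1 alpha) and Ccl4 (MIP-1 beta) encode related inflammatory chemokines, and Ccl3 is a ligand of CCR1. Ccl3 was at 144, 296, 233 and 252 CPM in WT normal libraries 2, 3, 5 and 6 and at 449, 493, 1014 and 314 CPM in WT CTX libraries 1 to 4. The log2 change was 1.29 (SE 0.35, edgeR adjusted p = 0.00344) in WT. In KO it rose from 182 ± 65.4 to 392 ± 111 CPM (log2 1.11, SE 0.35, edgeR adjusted p = 0.00903). Both calls ended when libraries were scaled by their totals only, where the changes were 0.68 (edgeR adjusted p = 0.0595) and 0.51 (edgeR adjusted p = 0.147). That scaling moved the median log2 change of all genes from -0.15 to -0.77 in WT and from -0.16 to -0.77 in KO.

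Ccl4 did not pass the test. It was at 248, 377, 379.5 and 333 CPM in WT normal libraries 2, 3, 5 and 6 and at 229, 210.0, 1884 and 240.2 CPM in WT CTX libraries 1 to 4. A single CTX library was thus above all normal ones and the other 3 were below all of them. The WT log2 change was 0.94 (SE 0.58, edgeR adjusted p = 0.155) and -0.56 (edgeR adjusted p = 0.0996) without WT CTX library 3. In KO the mean was 315 ± 107 CPM before and 312 ± 119 CPM after injury (log2 -0.01, SE 0.58). The ratio of Ccl3 to Ccl4 counts was 0.391 to 0.835 in the 8 normal libraries. It was 1.11 to 2.35 in 7 of the 8 CTX libraries and 0.538 in WT CTX library 3.

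**Figure D3:**
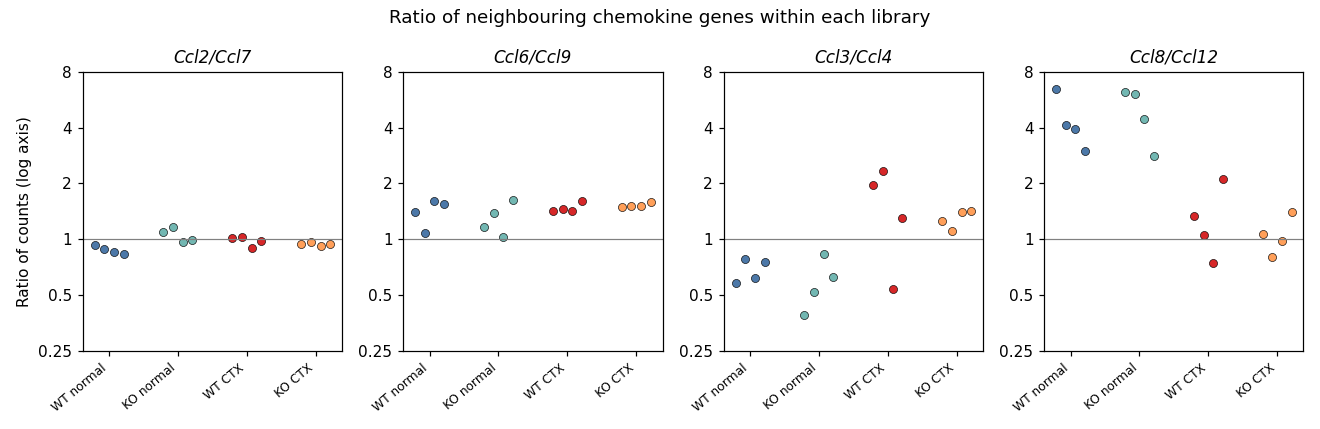
Ratio of the counts of 2 neighbouring genes within each library (log axis), for 4 pairs and 4 groups, where a ratio does not depend on the scaling between libraries. Ccl2/Ccl7 lies at 0.833 to 1.16 in all libraries, Ccl8/Ccl12 at 2.81 to 6.44 in normal and 0.746 to 2.12 in CTX libraries, and Ccl3/Ccl4 is below 1 in the normal libraries and in 1 WT CTX library.

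Ccl5 (RANTES), a chemokine made by T and NK cells as well as by activated macrophages, was the member of lowest level per kilobase of exon, and its spread relative to the mean was the largest of the members in both CTX groups but not in normal muscle. It was at 20.9, 15.8, 16.5 and 22.1 CPM in WT normal libraries 2, 3, 5 and 6 and at 2.21, 1.51, 119 and 7.15 CPM in WT CTX libraries 1 to 4. In KO it was at 37.3, 21.8, 23.9 and 16.2 CPM in normal libraries 1, 2, 3 and 5 and at 8.35, 9.85, 2.18 and 5.71 CPM in CTX libraries 1 to 4. All KO CTX libraries and 3 of the 4 WT CTX libraries were below every normal library of their genotype, and WT CTX library 3 was above all of them. The change was not called by edgeR in either genotype, at 0.78 (SE 0.90, edgeR adjusted p = 0.447) on the log2 scale in WT and -1.93 (SE 0.96, edgeR adjusted p = 0.0793) in KO. Without WT CTX library 3, Ccl5 fell in WT by 2.37 on the log2 scale (edgeR adjusted p = 0.000780). With limma voom and sample weights it fell in both, by 2.17 in WT (adjusted p = 0.0111 by limma) and 2.27 in KO (adjusted p = 0.00280 by limma).

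The summed level of 9 T and NK cell markers was lower in every CTX library than in every normal library. Ccl5 was lower in 3 of the 4 WT CTX libraries and in all KO CTX libraries, and its change was not called by edgeR. It was 26.2 to 42.8 CPM in WT normal, 30.6 to 79.8 CPM in KO normal, 1.33 to 4.76 CPM in WT CTX and 4.32 to 6.96 CPM in KO CTX libraries. Ncr1 was the only one of the 9 at 0 in all libraries of a group, WT CTX. Cd2 was the marker of highest mean in normal muscle, at 23.8 CPM in WT and 20.8 CPM in KO. The part of these cells in the level of Ccl5 was not tested. In WT CTX library 3, where Ccl5 was highest, the T and NK sum was the lowest of all libraries at 1.33 CPM.

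Ccl24 (eotaxin-2) encodes a ligand of the eosinophil receptor CCR3 and is a product of alternatively activated macrophages. It was at 169, 183, 287 and 172 CPM in WT normal libraries 2, 3, 5 and 6 and at 161, 171, 106 and 184 CPM in WT CTX libraries 1 to 4. In KO it was at 89.2, 107, 105 and 234 CPM in normal libraries 1, 2, 3 and 5 and at 498, 148, 271 and 275 CPM in CTX libraries 1 to 4. The groups overlapped in both genotypes. Ccl24 rose in KO (log2 1.15, SE 0.34, edgeR adjusted p = 0.00659) and was not called in WT (log2 -0.38, SE 0.34, edgeR adjusted p = 0.317). With library totals only, the KO call ended at 0.55 (edgeR adjusted p = 0.141) and Ccl24 fell in WT by 0.99 (edgeR adjusted p = 0.0136). Eosinophil markers, 5 genes, summed to 62.6 to 873 CPM in WT normal and 115 to 573 CPM in KO normal libraries. They summed to 27.8 to 55.1 CPM in WT CTX and 46.7 to 111 CPM in KO CTX libraries. By edgeR, 4 of the 5 genes fell in each genotype, and the receptor gene Ccr3 was not called. Mean Ccr3 was 29.5 CPM in WT normal and 27.7 CPM in WT CTX muscle (log2 -0.09, SE 0.36). In KO it was 26.4 and 34.7 CPM (log2 0.39, SE 0.36).

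Markers of further cell types are given as summed levels. The neutrophil sum of 7 genes ranged from 281 to 4433 CPM in WT normal, 236 to 6537 CPM in KO normal, 117 to 348 CPM in WT CTX and 218 to 1102 CPM in KO CTX libraries, with overlapping ranges, and 5 of its 7 genes fell by edgeR in WT and 1 of 7 in KO. Dendritic cell markers lay at 290.4 to 628 CPM before and 29.2 to 50.2 CPM after injury. By edgeR, 5 of the 6 genes fell and 1 rose in each genotype. The one of higher mean after injury was Xcr1, from 7.12 to 35.9 CPM in WT and from 10.9 to 19.9 CPM in KO. The 5 fibroblast markers lay at 135 to 592 CPM before and 42.4 to 81.4 CPM after injury. Resident macrophage markers summed to 2727 to 5941 CPM without injury and 916 to 1763 CPM with it, and 5 monocyte markers lay at 737 to 1667 CPM and 2632 to 3298 CPM, with 1 of the 5 genes called higher by edgeR in WT and 2 in KO. Immediate early genes, which cell isolation is known to induce, summed to 14366 to 23967 CPM without injury and 5957 to 7883 CPM with it. The part of any of these in the rise of the chemokines was not tested.

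WT CTX library 3 stood apart from the other WT CTX libraries by high levels of some members. Ccl2, Ccl3, Ccl4, Ccl5, Ccl7 and Ccl12 were at their highest of all 16 libraries there. Ccl6 (5067 CPM), Ccl9 (3577) and Ccl24 (106) were at their lowest among the WT CTX libraries, with Ccl9 close to library 4 (3682). On the log2 scale it lay 3.99 above its group's mean for Ccl5, 2.29 for Ccl4, 0.98 for Ccl3, 0.94 for Ccl12, 0.65 for Ccl7 and 0.53 for Ccl2. A summed list of 15 genes of NF-kB subunits, NF-kB targets and mRNA decay was at 21840 CPM in it, against 10660 to 15226 CPM in the other 3 libraries. Its summed neutrophil (340.3 CPM), dendritic cell (50.2) and macrophage (32378) markers were near those of WT CTX library 2 (348, 50.1 and 31332). In WT CTX libraries 1 and 4 the neutrophil sum was 117 and 243 CPM. Library 3 had the lowest WT CTX sums of resident macrophage (1282 CPM, next 1371), T and NK (1.33, next 2.53) and B cell markers. Its macrophage and eosinophil (55.1 CPM, next 45.5) sums were the highest. Its monocyte (2837 CPM) and fibroblast (73.1) sums lay within the range of the others. The part of cell make-up in its chemokine levels was not tested. Without this library the same 6 genes were called as rising in WT, with log2 changes of 1.28 for Ccl7, 1.39 for Ccl12, 0.86 for Ccl3, 2.27 for Ccl6 and 2.20 for Ccl9. Those of Ccl3, from 1.29, and Ccl12, from 1.80, moved most among the 6.

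**Figure D4:**
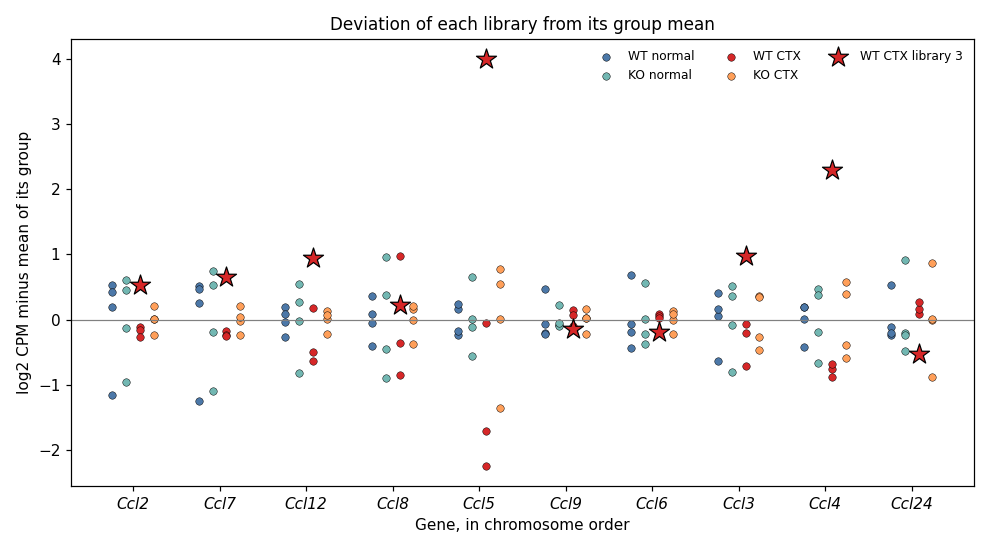
Each library's log2 CPM minus the mean of its group, for each member, with WT CTX library 3 drawn as a star. The star lies 3.99 above the group mean for Ccl5 and 2.29 for Ccl4, and below it for Ccl6, Ccl9 and Ccl24.

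Members differed in how they varied among libraries of a group. After group means were subtracted, Pearson correlations of log2 CPM over the 16 libraries, which share scaling factors, were 0.84 between Ccl2 and Ccl3, 0.83 between Ccl6 and Ccl9 and 0.70 between Ccl6 and Ccl24. Without WT CTX library 3 these were 0.85, 0.82 and 0.69. That of Ccl4 and Ccl5 was 0.86 and dropped to 0.39 without it, and that of Ccl3 and Ccl4 went from 0.80 to 0.73. These are descriptions of the libraries. Among 8291 other genes of sufficient level, those most alike to Ccl2 were Ccl7, the lipid droplet gene Hilpda (0.97) and the NF-kB target Birc3 (0.96). Those most alike to Ccl7 were Ccl2, Hilpda (0.96) and Birc3 (0.96). The cytokine gene Tnf was second for Ccl3 (0.94), after Kctd12 (0.98) and before Marcks (0.94). For Ccl4 the list was Peli1 (0.94), Il6 (0.93) and the interferon-induced Cxcl10 (0.92), at 0.70, 0.78 and 0.67 without WT CTX library 3. That of Ccl5 was Trex1 (0.94), Cfb (0.93) and Cxcl10 (0.93), at 0.75, 0.94 and 0.68 without that library. For Ccl12 the list held Znfx1 (0.92), Rtp4 (0.92) and Thada (0.91), and for Ccl6 Susd1 (0.95), Nacc2 (0.89) and Ifi27 (0.88). That of Ccl8 held Chid1 (0.90), Cd48 (0.89) and Ccdc91 (0.88), and that of Ccl9 Ctnnd1 (0.87), Ccl6 (0.83) and C4b (0.82). Most alike to Ccl24 were Flrt2 (0.84), Plxnd1 (0.81) and Zdhhc14 (0.81).

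Loss of Glud1 was compared within each tissue, to describe the chemokine genes of Glud1-deficient macrophages with and without damage. In normal muscle edgeR called no member and no gene at all (0% of those tested, 390 with an unadjusted p under 0.05). DESeq2 and limma voom also called no member. Among the members, 4 had an unadjusted p under 0.05 (Ccl2, Ccl6, Ccl7 and Ccl9), where the share over all genes was 2.86%, and all 4 were lower in KO. Within groups Ccl2 varied with Ccl7 (Pearson correlation 0.997) and Ccl6 with Ccl9 (0.83), so these 4 are not separate results. The median log2 difference of the members was -0.40 and that of all genes 0. Ccl7 differed most, at -1.17 on the log2 scale (SE 0.38, edgeR adjusted p = 0.991), followed by Ccl2 at -0.93 (SE 0.34), Ccl6 at -0.57 (SE 0.23) and Ccl9 at -0.46 (SE 0.15).

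The lower Ccl2 and Ccl7 of KO normal muscle overlapped WT because of 1 library. WT normal library 2 had 203 CPM of Ccl2 and 218 CPM of Ccl7, within the KO ranges of 124 to 368 and 107 to 383 CPM. The other 3 WT normal libraries, at 517 CPM of Ccl2 and 620.2 CPM of Ccl7 or more, were above all KO normal libraries. Normal libraries of the 2 genotypes that share a number varied together over all genes (correlations 0.64, 0.57 and 0.24 for numbers 2, 3 and 5). Libraries with different numbers did so too, at 0.59 for WT 6 with KO 5 and 0.47 for WT 2 with KO 1, so the pairing is uncertain. Within the 3 same-numbered pairs Ccl2 was lower in KO, at 124 against 203, 368 against 655 and 330.3 against 611 CPM. For numbers 3 and 5 this was fixed, since those WT libraries lay above all KO normal ones. The pairs were also picked from these data. Of the other correlated pairs, KO 5 was below WT 6 (330.3 against 517 CPM) and KO 1 above WT 2 (222 against 203 CPM). The libraries numbered 2 had the lowest Ccl2, Ccl3, Ccl4 and Ccl7 and the highest neutrophil sum of their group in both genotypes (4433 CPM in WT and 6537 CPM in KO), and the part of neutrophils was not tested. With the number as a block, the log2 differences were -1.03 for Ccl7 (edgeR adjusted p = 0.260) and -0.81 for Ccl2 (edgeR adjusted p = 0.355), still not called.

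**Figure D5:**
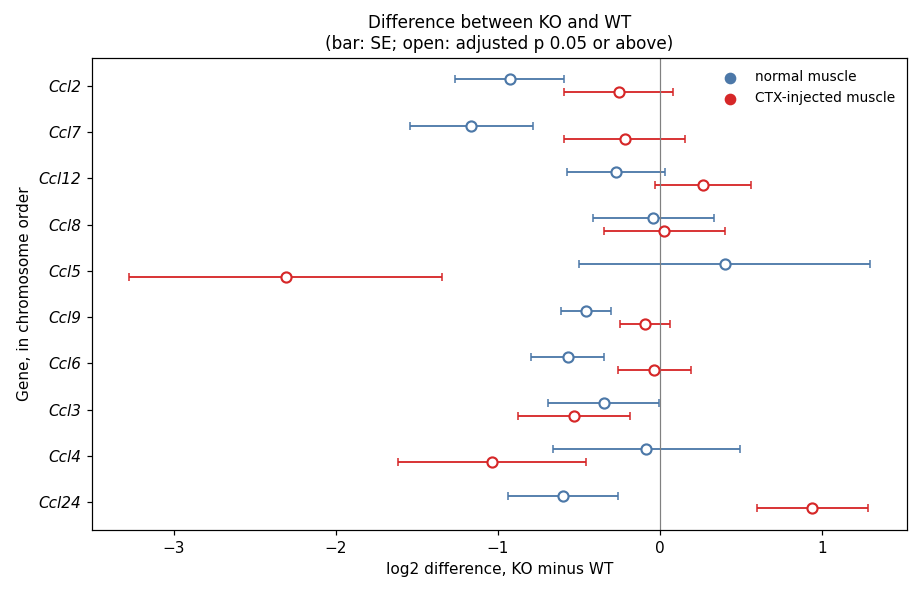
Fitted log2 difference between KO and WT for each member in normal and in CTX-injected muscle, with SE bars, where open points have an adjusted p of 0.05 or above. All points are open, with Ccl7 at -1.17 and Ccl2 at -0.93 in normal muscle and Ccl5 at -2.31 and Ccl24 at 0.94 in CTX-injected muscle.

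In CTX-injected muscle no member was called by edgeR, where 0.00733% of all genes were (1 gene, which is not a member). DESeq2 and limma voom called no member either. Ccl5 (log2 difference -2.31, SE 0.97, edgeR adjusted p = 0.682) and Ccl24 (0.94, SE 0.34, edgeR adjusted p = 0.603) had unadjusted p-values under 0.05, which 6.67% of all genes had. The value of Ccl5 changed sign to 0.84 without WT CTX library 3, as did that of Ccl4, from -1.04 to 0.46. Ccl24 was at 498, 148, 271 and 275 CPM in KO against 106 to 184 CPM in WT, so 3 KO libraries lay above all WT ones and 1 among them. The difference was -0.04 (SE 0.23) for Ccl6 and -0.09 (SE 0.15) for Ccl9, smaller than its error in both.

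Whether injury changed the members differently in KO was tested as an interaction, which edgeR called for no gene (0% of those tested). DESeq2 and limma voom called no member in it. The member of smallest p was Ccl24, with a log2 difference between the responses of 1.54 (SE 0.48, edgeR adjusted p = 0.582), the only one with an unadjusted p under 0.05, against 4.73% of all genes. For Ccl7 it was 0.94 (SE 0.53), for Ccl2 0.67 (SE 0.47), for Ccl6 0.53 (SE 0.32) and for Ccl9 0.37 (SE 0.22). All 4 of these genes had lower mean levels in KO than in WT normal muscle, and none passed the test. So a rise of Ccl24 called in KO and not in WT is not shown to differ between them.

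Single members were also compared by exact two-sided permutation of CPM, 4 against 4 libraries, whose smallest possible p is 0.0286. The 6 rising genes in WT, and the same 6 with Ccl5 in KO, were those whose groups did not overlap (65.5% of all genes in WT and 66.8% in KO). They reached that exact permutation p, adjusted to 0.0879 over the 40 tests, so no member passed after adjustment. Groups that are fully separate cannot go below 0.0286 here. Passing therefore depended on how many of the 40 tests reached it, and the adjusted value cannot decide for a single member. In the genotype comparisons the smallest exact permutation p was 0.0571, for Ccl9 in normal muscle.

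Of 14 other CC ligand genes, 6 passed the filter and none of these rose by edgeR in either genotype, while 5 fell in each, and the other 8 were at too few counts to test. Ccl22, a CCR4 ligand of dendritic cells and macrophages, was at 28.3 to 57.6 CPM in WT normal and 5.63 to 13.9 CPM in WT CTX libraries (log2 -2.06, SE 0.41, edgeR adjusted p = 0.000309). In KO it went from 69.8 ± 12.2 to 11.7 ± 8.10 CPM (log2 -2.57, edgeR adjusted p = 3.85e-05). Ccl17, which shares that receptor, was at 3.24 ± 1.36 CPM in WT normal and 0.691 ± 0.326 CPM in WT CTX muscle and fell in both genotypes. The eotaxin gene Ccl11, a product of stromal cells, fell from 1.54 ± 0.381 to 0.545 ± 0.297 CPM in WT. Ccl25 stayed between 0.801 and 2.17 CPM and was not called. The median log2 change of the 6 was -1.90 in WT and -1.87 in KO.

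Of 15 CC receptor genes, 13 were tested, and 3 rose and 7 fell by edgeR in WT, against 3 and 8 in KO. Ccr1, the receptor for Ccl3, Ccl6 and Ccl9, rose from 289 ± 146 to 977 ± 186 CPM in WT (log2 1.76, SE 0.39, edgeR adjusted p = 0.000799). In KO it rose from 144 ± 75.9 to 825 ± 58.0 CPM (log2 2.52, SE 0.40, edgeR adjusted p = 3.66e-05). Ccrl2, an atypical receptor, rose by 0.94 and 0.72 on the log2 scale in WT and KO. Ccr2, the receptor for the monocyte chemoattractants, was at 505 ± 82.2 CPM in WT normal and 535 ± 52.0 CPM in WT CTX muscle (log2 0.08, SE 0.15, edgeR adjusted p = 0.627). In KO it was at 559 ± 97.3 and 472 ± 75.9 CPM (log2 -0.25, SE 0.15, edgeR adjusted p = 0.155). Like Ccl2 and Ccl7, Ccr1 was lower in KO normal than in WT normal muscle, at -1.01 on the log2 scale (SE 0.38), which was not called (edgeR adjusted p = 0.991).

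Of 15 genes of NF-kB subunits, NF-kB targets and mRNA decay, 10 rose and 1 fell by edgeR in WT and 11 rose and 1 fell in KO. The inhibitor gene Nfkbia rose from 856 ± 73.2 to 2648 ± 557 CPM in WT and from 819.9 ± 141 to 2154 ± 109 CPM in KO. Il1b, which encodes a cytokine that induces chemokines in other cells, changed by log2 2.31 and 1.74, and the feedback deubiquitinase gene Tnfaip3 by 1.07 and 0.53. The gene that fell was Zfp36, from 3417 ± 593 to 1516 ± 242 CPM in WT (log2 -1.17, edgeR adjusted p = 7.55e-06) and from 3361 ± 569.6 to 1429 ± 50.1 CPM in KO (log2 -1.24, edgeR adjusted p = 4.31e-06). The median log2 change of this list was 0.74 in WT and 0.85 in KO.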

How the data were processed

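RNA of F4/80-positive cells sorted from muscle was extracted with a micro column kit and amplified with SMART-Seq V4, per the labels' protocols, a method that keeps no strand. Per the submitters' processing notes the tools were HISAT2 2.1.0, Subread 1.6.2 (featureCounts), cutadapt 1.18 and FastQC 0.11.7, with the build mm10. The authors deposited raw read counts per gene symbol, with no normalization. The annotation and the treatment of multi-mapping reads are not given in the sources used here. All 16 columns were matched to libraries by name.

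Genes were filtered with filterByExpr, which left 13649, and scaled with TMM. EdgeR 4.0.16 (R 4.3.3) quasi-likelihood tests used 1 coefficient per group over 16 libraries, with Benjamini-Hochberg adjustment over all genes tested and a threshold of 0.05. SE is the log2 change divided by the square root of F. The prior count of log2 CPM was 2. The steps were tested on simulated data. Alternatives used DESeq2 1.42.0 and limma 3.58.1. The 10 members and the lists were chosen with earlier results of these data known. The 4 genes of highest level in each list, and the 3 genes most alike to each member (mean log2 CPM of at least 3), were named by rule, and 1 receptor gene is not reported here. Same-numbered libraries of normal muscle were taken as pairs because all 3 correlations were above 0.1, a hint from the data and not from the labels. WT 6 with KO 5 (0.59) and WT 2 with KO 1 (0.47) were also above 0.1, and KO 5 was closer to WT 6 than to WT 5 (0.24). Same-numbered libraries of CTX-injected muscle did not vary together (-0.12 to 0.00), but the replicate block of the genotype and interaction fits paired them too. In the injury fits the block was the number over all libraries, although same-numbered normal and CTX libraries correlated at only -0.06 to 0.07. Results of the block are thus an alternative whose pairs are uncertain. Reads carry no molecular identifiers, so counts bound counting error only.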

Additional observations from a re-analysis of the deposited data

Results flagged for a closer look

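In 7 of 40 sets of 4 libraries (10 genes in 4 groups), 1 library lay far from the others. Its gap to the nearest exceeded 0.829 of the whole range, which about 1 in 20 sets of independent, normally distributed values would exceed. The CPM were not on a log scale, and members such as Ccl2 and Ccl7 vary together. The 7 sets are thus a description and no measure of an excess over chance. WT CTX library 3 accounts for 4 of them, with Ccl2 at 2277 CPM (next 1465), Ccl4 at 1884 CPM (next 240.2), Ccl5 at 119 CPM (next 7.15) and Ccl7 at 2531 CPM (next 1437). KO normal library 5 accounts for 2, with Ccl9 at 746 CPM (next 615) and Ccl24 at 234 CPM (next 107). In WT normal library 5, Ccl24 was at 287 CPM (next 183). No member was called in the interaction between genotype and injury, so none is listed as differing between groups.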

How the results depend on the processing

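Of 915 refitted member values, 906 were counted as unchanged. These include changes of sign where neither fit was called, such as Ccl4 in injured WT muscle, 0.94 and -0.56 without WT CTX library 3. Of the others, 3 lost and 4 gained a call, and 2 changed sign and were called in the refit. Both reversals were of Ccl5 in injured WT muscle, -2.17 with limma voom and -2.37 without WT CTX library 3 (range 1.182 to -2.37 when 1 library was left out). The number of members called lower in WT was 0 to 1 when 1 library was left out (1 without WT CTX library 3), 1 with limma voom (Ccl5) and 1 with library totals only (Ccl24). In KO it was 1 (Ccl5) with library totals only, limma voom and a fit of the 2 groups compared. The 6 and 7 rising genes were counted the same with each library left out. Library totals only gave 1944 higher and 8349 lower genes of all tested in WT, and 1920 and 8398 in KO, and made Ccl8 negative (-0.59 in WT and -0.54 in KO), as it did Ccl4 in KO (-0.63).

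Genotype in CTX-injected muscle gave 17 higher and 26 lower genes with DESeq2, 66 and 46 with limma voom, 1 lower with male libraries, 2 lower with only the groups compared and 0 to 1 lower with 1 library left out (1 without KO CTX library 2). The interaction gave 9 higher and 39 lower with DESeq2, 2 and 9 with limma voom and 1 lower with male libraries. With 1 library left out it gave 0 to 1 higher (1 without KO CTX library 2) and 0 to 2 lower (2 without KO normal library 5). The replicate block, which also paired same-numbered CTX libraries, gave 2 higher and 2 lower genes for genotype in CTX-injected muscle and changed no call of a member. DESeq2 gave no adjusted p for Ccl5. The cause of these shifts was not tested. Ccl5 rests on few counts in WT CTX libraries 1, 2 and 4 (39, 27 and 130).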
